A study of Homo sapiens with 6 samples.

Results

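AP-1 is a family of transcription factors that bind DNA as pairs of basic leucine zipper (bZIP) proteins, and 10 of its genes were followed here in PANC1 cells, a human pancreatic carcinoma line, upon treatment with gemcitabine. The genes were chosen by name: the FOS family (FOS, FOSB, FOSL1 and FOSL2), the JUN family (JUN, JUNB and JUND), and ATF3, BATF3 and MAFF. They are 10 of the 20461 genes in the deposited RNA-seq table. For 48 h, cells received 0.1% DMSO as vehicle or 50 nM gemcitabine, a cytidine analogue that stalls DNA replication, and 2 biological replicates of each condition were sequenced. DNaseI-seq, which marks open chromatin, covers the same conditions with 1 library each, and its treatment time is not repeated in the labels. All cells were of 1 line, and the labels list charcoal-stripped and dialyzed serum among its culture materials. The comparison of the conditions addresses which transcripts and open regions changed upon gemcitabine treatment.

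FOS proteins pair only with partners such as the JUN proteins, while JUN proteins also pair with each other, and the pairs bind the sequence TGACTCA, known as the TRE, or TGACGTCA, known as the CRE. Many AP-1 genes are immediate early genes: growth factors, stress and DNA damage raise their transcription within minutes through MAP kinases, and the messages and proteins are short-lived. ATF3 is a stress-induced bZIP factor that pairs with JUN proteins, BATF3 lacks an activation domain of its own and is best known in dendritic cells, and MAFF is a small MAF protein that binds DNA but has no activation domain.

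The RNA-seq libraries held 15153593 and 15766237 fragments on genes for vehicle and 13194533 and 13275457 for gemcitabine, and 3 fragments, the limit that a count of 0 allows, came to 0.190 to 0.227 CPM for counting error only. Keratin genes of pancreatic duct and carcinoma epithelium were high (KRT7 at 1491 to 1658 FPKM, KRT8 and KRT18 at 336 to 650 FPKM), whereas KRT19 and EPCAM stayed at 2.09 to 6.91 FPKM. FPKM is the number of fragments per kilobase of transcript, scaled to library depth. The mesenchymal gene VIM was at 385 to 476 FPKM and ZEB1 at 7.67 to 11.3 FPKM. Of the fibroblast genes, COL1A1 was at 864 to 1100 FPKM, PDGFRB at 19.1 to 62.6 FPKM and DCN at 3.02 to 6.3 FPKM. The acinar gene PRSS1, the islet genes INS and GCG, and the leukocyte genes CD3E and LYZ were listed at 0 in all 4 libraries.

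AP-1 genes carry sites for their own and related factors close to their starts, so the 500 bases upstream of each main transcription start were searched in the GRCh37 (hg19) sequence for TGACTCA and TGACATCA on both strands, for TGACGTCA, which reads the same on both strands, and for the CArG box, the site of the serum response factor SRF. The matches outside exons are given with 20 bases on either side, read in the direction of the gene, with the match in capitals.
FOS CArG box, chr14:75745197-75745246, plus strand: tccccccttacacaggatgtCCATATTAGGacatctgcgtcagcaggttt
FOSB CRE, chr19:45970909-45970956, plus strand: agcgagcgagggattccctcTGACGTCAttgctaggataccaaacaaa
FOSB CArG box, chr19:45970960-45971009, plus strand: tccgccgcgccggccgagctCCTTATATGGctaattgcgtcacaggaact
JUN TGACATCA, chr1:59249759-59249806, minus strand: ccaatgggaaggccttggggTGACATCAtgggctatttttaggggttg
JUND CRE, chr19:18392605-18392652, minus strand: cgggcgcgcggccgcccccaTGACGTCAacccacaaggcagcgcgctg
These stretches are shown because they stand upstream of genes that rose (FOSB and JUN) or fell (FOS and JUND) in the comparison of RNA, and the CRE and the CArG box each occur on both sides. The CArG boxes of FOS and FOSB lie 314 to 305 and 274 to 265 bases upstream of the start, and the TGACATCA of JUN lies 67 to 60 bases upstream. The FOSB stretches also lie in introns of ERCC1, which is transcribed from the opposite strand, and those of FOS, JUN and JUND lie in no other gene of the table. MAFF has a CRE 54 to 47 bases upstream of its main start, inside an exon of transcripts that start earlier. The CRE was found in 3 of the 10 windows, against 2.97% of the windows of 18276 genes, the CArG box in 2 against 2.37%, TGACATCA in 1 against 2.66%, and TGACTCA in 0 against 6.01%. No match of these letters was found for FOSL1, FOSL2, JUNB, ATF3 or BATF3, which says only that the letters are not in the window. For FOSL1, TGACTCA lies across the main start itself and so is not wholly in the window.

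By FPKM, FOS was the most abundant of the 10 transcripts in vehicle-treated cells and FOSB the least. The top rank of FOS depends on length: in vehicle its FPKM implies 0.822 and 0.988 kb, and that of JUNB 1.7 and 1.77 kb. In fragments JUNB was above FOS in each library, with 3698 and 3465 against 3314 and 3327 in vehicle. After gemcitabine JUNB had 2848 and 3219 fragments and FOSL2 1979 and 2210, against 1904 and 1788 for FOS. The mean level of FOS was 240 FPKM ± 37 (SD, n = 2), above that of 96.5% of the 14854 genes tested, while FOSB was at 2.01 FPKM ± 0.247 (SD, n = 2), above 25.8% of them. JUNB and JUND followed FOS with 134 and 107 FPKM. FOSL2 came next at 31.8 FPKM, then ATF3 at 18 FPKM, FOSL1 at 14.6 FPKM, BATF3 at 13.1 FPKM, JUN at 7.18 FPKM and MAFF at 5.53 FPKM. JUN, the founding member of its family, was thus the lowest of the 3 JUN genes in each library. With 2 libraries per condition, no 2 neighbours in this order overlapped in vehicle, although the gap was small between FOSL1, lowest at 14 FPKM, and BATF3, highest at 13.3 FPKM. After gemcitabine the order was kept except for MAFF and JUN, which changed places, and FOSL2 and ATF3 overlapped, with 32.7 and 36.9 FPKM for FOSL2 and 35.6 and 31.3 FPKM for ATF3.

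**Figure D1:**
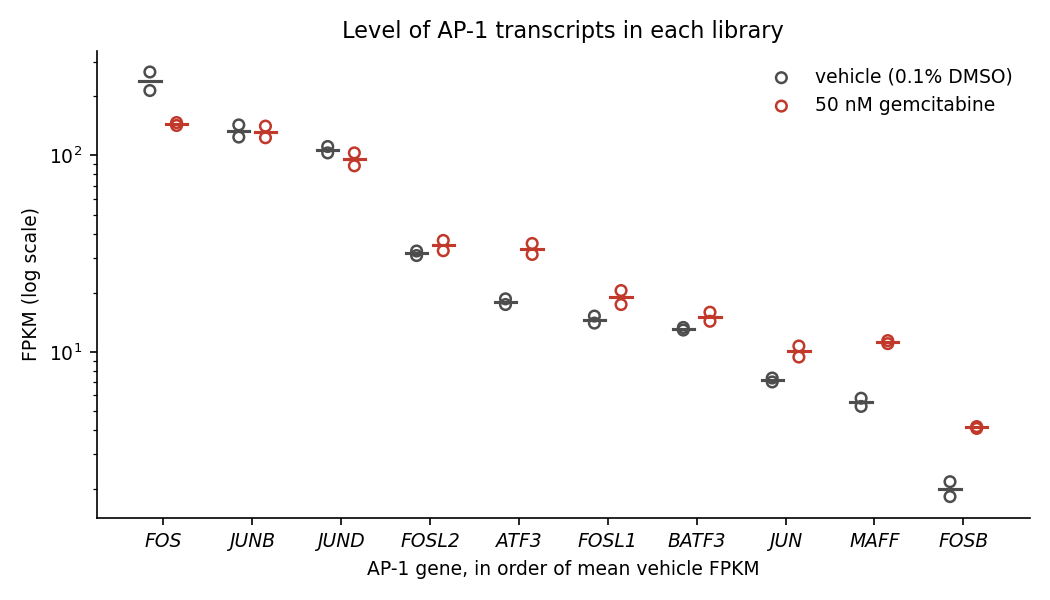
FPKM of the 10 AP-1 genes on a log axis, with 1 circle per library and a bar at the mean of the 2 libraries of vehicle (grey) and gemcitabine (red). FOS fell from 240 to 145 FPKM on average and stayed the highest on this scale, while FOSB, the lowest, went from 2.01 to 4.11 FPKM.

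Upon gemcitabine treatment 5 of the 10 genes rose (FOSB, FOSL1, JUN, ATF3 and MAFF), 2 fell (FOS and JUND), and FOSL2, JUNB and BATF3 did not pass the test. The test was edgeR's quasi-likelihood test on fragments, with an adjusted p under 0.05 over all 14854 genes whose 4 libraries summed to 10 fragments or more, and all 10 AP-1 genes passed that filter. Of all genes tested 38.5% passed, 18.5% as higher and 20% as lower, so the background is high. The median log2 fold change of the 10 genes was 0.22, against 0.0068 for all genes. When the further criteria of the study were applied (a fold change over 1.5, a mean of at least 0.1 FPKM in 1 condition and a difference of at least 1 FPKM), 3 genes were called: FOSB and MAFF as up-regulated and FOS as down-regulated. Those 4 criteria called 10.1% of all genes, 5.69% as up-regulated and 4.43% as down-regulated. The adjusted p and the fold change came from edgeR on fragments, not from the authors' Cuffdiff, so these are not the study's own calls. The scaled CPM of the conditions did not overlap for the same 7 genes that passed the test, 5 higher and 2 lower, beside 34.8% of all genes higher and 34.9% lower. For a single gene, an exact permutation test of 2 against 2 libraries cannot give a two-sided p under 0.333. In bulk RNA, a change in the share of cells that express a gene and a change in the RNA per cell cannot be told apart.

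FOS encodes the founding FOS protein, an immediate early factor that cannot pair with itself. Its fragments numbered 3314 and 3327 with vehicle and 1904 and 1788 with gemcitabine, which is 228 and 218 scaled CPM against 137 and 131. Both gemcitabine libraries were thus well below both vehicle libraries. FOS was 1.66-fold lower (log2 fold change -0.73, SE 0.0667, edgeR adjusted p = 1.47e-06). Its FPKM was 266 and 214 in vehicle, a wider spread than that of the fragments, and 147 and 142 after gemcitabine.

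FOSB, its close paralogue, went the other way. It had 74 and 93 fragments in vehicle and 166 and 179 after gemcitabine, or 1.83 and 2.18 FPKM against 4.16 and 4.07 FPKM. The conditions were well apart, although FOSB rested on the fewest fragments of the 10 genes in the vehicle libraries. The rise was 2.24-fold, the largest of the 10 in edgeR (log2 fold change 1.16, SE 0.16, edgeR adjusted p = 5.67e-05). In FPKM this rank was close: the log2 ratio of the means was 1.03 for FOSB, 1.02 for MAFF and 0.89 for ATF3. On log2(FPKM + 1), where the added 1 weighs most on low levels, the difference was 0.77 for FOSB, 0.90 for MAFF and 0.86 for ATF3. With 0.1 added it was 1.00, 1.01 and 0.89.

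FOSL1 encodes FRA1, a FOS protein without the C-terminal activation domain of FOS. It had 248 and 272 fragments in vehicle and 343 and 322 after gemcitabine, and 15.2 and 14 FPKM against 20.5 and 17.4 FPKM. Both gemcitabine libraries were above both vehicle libraries by a modest margin. The log2 fold change of FOSL1 was 0.47 (SE 0.102, edgeR adjusted p = 0.00221). With 1 library left out at a time its log2 fold change was 0.44 to 0.51. FOSL2, which encodes the related FRA2, had 153 and 152 scaled CPM in vehicle and 143 and 162 after gemcitabine. The gemcitabine libraries lay on either side of the vehicle libraries, and the log2 fold change was 0.0031 (SE 0.073, edgeR adjusted p = 0.977). Its sign turned to -0.091 without gemcitabine replicate 2.

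In the JUN family, JUN had 350 and 397 fragments in vehicle and 479 and 415 after gemcitabine, which is 7.02 and 7.35 FPKM against 10.7 and 9.4 FPKM. The higher vehicle library and the lower gemcitabine library were close in fragments and further apart per length and depth. Its log2 fold change was 0.37 (SE 0.0979, edgeR adjusted p = 0.00754), and 0.28 to 0.46 with 1 library left out at a time. JUND, a more steadily expressed family member that restrains growth in many cells, had 173 and 161 scaled CPM in vehicle and 129 and 131 after gemcitabine. JUND fell with a log2 fold change of -0.36 (SE 0.0674, edgeR adjusted p = 0.000748), and of -0.40 to -0.30 with 1 library left out at a time. On the FPKM scale the values of JUND were 111 and 103 against 103 and 88.5, so that scale shows a smaller difference.

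JUNB, which often opposes JUN on shared targets, had 254 and 228 scaled CPM in vehicle and 206 and 235 after gemcitabine. The conditions overlapped and the log2 fold change was -0.13 (SE 0.0802, edgeR adjusted p = 0.233). The log2 fold change of JUNB was -0.23 without gemcitabine replicate 2 and -0.026 without gemcitabine replicate 1, so its size depends on the library kept. JUNB shares 259 of its 1830 exonic bases with HOOK2 on the opposite strand, and the library kit does not keep the strand, so reads there cannot be told apart.

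ATF3 had 524 and 545 fragments in vehicle and 704 and 604 after gemcitabine, which is 36.1 and 35.8 scaled CPM against 50.8 and 44.2. The vehicle libraries were nearly equal and both gemcitabine libraries lay above them. The log2 fold change was 0.40 (SE 0.0877, edgeR adjusted p = 0.00213), and 0.31 to 0.50 with 1 library left out at a time. In fragments ATF3 thus stayed below a fold of 1.5. The difference was larger in FPKM, at 17.4 and 18.6 against 35.6 and 31.3, a log2 ratio of the means of 0.89 or 1.86-fold, which is over that limit. With limma on log2(FPKM + 1), ATF3 rose by 0.86 (adjusted p = 0.0185). In that fit 3 AP-1 genes in place of 2 were called as up-regulated, and 894 of all genes in place of 845. The FPKM estimate of ATF3 was thus higher than that of fragments by 0.49. The median difference over 10599 genes with at least 400 fragments was 0.12, with quartiles of 0.061 and 0.20. Of those genes 2.79% had a larger difference in the same direction as ATF3. The depth-scaled fragments of ATF3 divided by its FPKM, which is the transcript length that the authors' FPKM implies, were 1.98 and 1.86 kb in vehicle and 1.5 and 1.45 kb after gemcitabine. Whether transcripts of different length account for this was not tested.

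MAFF had 183 and 134 fragments in vehicle and 226 and 262 after gemcitabine, or 5.8 and 5.27 FPKM against 11.4 and 11 FPKM. Both gemcitabine libraries were higher, but the vehicle libraries differed from each other by more in fragments than in FPKM. The log2 fold change was 0.73 (SE 0.158, edgeR adjusted p = 0.00202), and it was 0.50 with an adjusted p of 0.0855 without vehicle replicate 2. MAFF shares 326 of 5611 exonic bases with PLA2G6 on the opposite strand. BATF3 had 163 and 162 fragments in vehicle and 164 and 152 after gemcitabine. Its scaled CPM overlapped between conditions, with a log2 fold change of 0.073 (SE 0.134, edgeR adjusted p = 0.703).

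**Figure D2:**
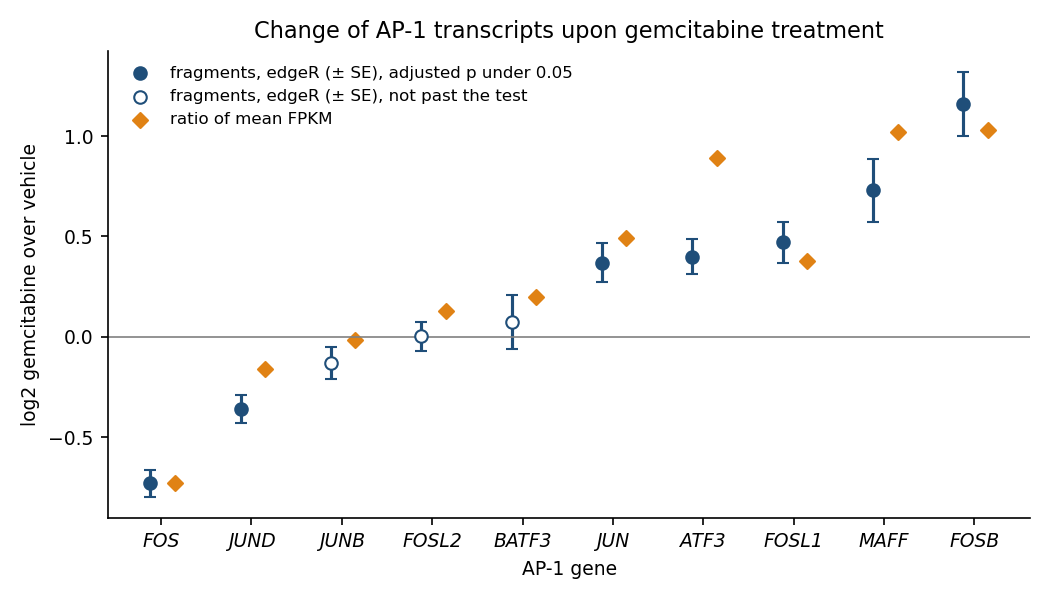
Change of each AP-1 gene upon gemcitabine treatment as log2 gemcitabine over vehicle, with edgeR estimates from fragments as circles (bars show ± SE, filled where the adjusted p was under 0.05) and the log2 ratio of mean FPKM as diamonds. FOS is lowest at -0.73 and FOSB highest at 1.16, and the scales lie furthest apart for ATF3, at 0.40 and 0.89.

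Since FPKM is per length, the share of each gene in the transcripts of its family can be given. In the FOS family, FOS made up 84.7% and 81.4% of the summed FPKM in the vehicle libraries and 71.9% and 70.9% in the gemcitabine libraries. The shares of the other 3 genes were each higher in both gemcitabine libraries than in both vehicle libraries. FOSL2 had 9.84% and 12.4% in vehicle and 16% and 18.4% after gemcitabine, FOSL1 4.84% and 5.35% against 10.1% and 8.69%, and FOSB 0.584% and 0.832% against 2.03% in both. The share of FOSL2 was higher although its fragments did not pass the test, as the FOS part of the sum was smaller. The summed FPKM of the FOS family was 288 ± 36.3 in vehicle and 203 ± 2.61 after gemcitabine (SD, n = 2).

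In the JUN family, the summed level was 248 ± 18.9 FPKM in vehicle and 238 ± 1.4 FPKM after gemcitabine (SD, n = 2), and the libraries overlapped. JUNB supplied 54.9% and 52.9% of it in vehicle and 52% and 59% after gemcitabine, again with overlap, and JUND 42.4% and 44% against 43.5% and 37%. JUN had 2.69% and 3.13% in vehicle and 4.52% and 3.94% after gemcitabine, so its share was higher but small in each library. The ratio of FOS family to JUN family FPKM was 1.2 and 1.12 in vehicle and 0.863 and 0.84 after gemcitabine. These shares are descriptions with no test, and they depend on the lengths the authors' tool assigned: on CPM, which is not per length, the share of FOS in its family was 56% in vehicle and 41.5% after gemcitabine.

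**Figure D3:**
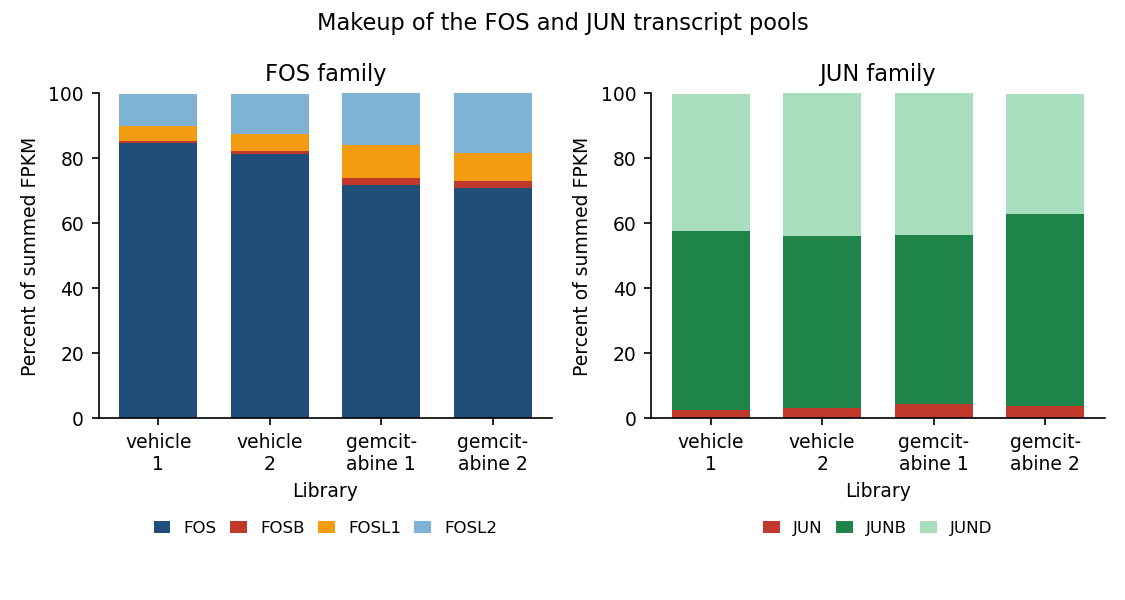
Share of each gene in the summed FPKM of the FOS family (left) and JUN family (right), in percent, with 1 stacked bar per library. FOS takes 81.4% or more in both vehicle libraries and 71.9% or less in both gemcitabine libraries, while JUNB and JUND make up most of the JUN family in each library.

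The lists of genes around AP-1, chosen with earlier results of these data known, were read with the same test. Of 30 AP-1 target genes 22 were tested and 13 rose while 4 fell, and the median log2 fold change was 0.40. Of all genes tested 18.5% rose and 20% fell, with a median of 0.0068. The chemokine gene CXCL8 rose most, from 24 and 13 fragments in vehicle to 103 and 120 after gemcitabine (log2 fold change 2.70, SE 0.277, edgeR adjusted p = 4.3e-06). The protease gene PLAU rose from 5 and 4 to 21 and 31 fragments (log2 fold change 2.61), the cytokine gene IL1B from 19 and 15 to 56 and 59 fragments (1.86) and the growth factor gene HBEGF from 43 and 67 to 133 and 150 fragments (1.48). The 4 that fell were PTGS2, VEGFA, CCND1 and GCLC, named after their values were seen, and of these PTGS2 alone met all 4 criteria (-0.84). The other 8 genes had too few fragments to be tested, among them the collagenase gene MMP1 with 2 fragments in 1 library and 0 in the rest. Many of these targets are also under the control of NF-kB, so the list is not specific to AP-1.

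Other immediate early genes moved both ways. Of 24 genes 23 were tested, 8 rose and 9 fell, beside 18.5% and 20% of all genes, and the median log2 fold change was -0.10. EGR1, a zinc finger factor induced together with FOS, fell from 3383 and 3741 fragments to 990 and 932 (log2 fold change -1.78, SE 0.0699, edgeR adjusted p = 3.33e-09). KLF4 and NR4A2, which encode a Krüppel-like factor and an orphan nuclear receptor, fell by 0.91 and 0.78 on the log2 scale, while CCN2, which encodes a matricellular protein, rose by 0.84. FOS thus moved in the same direction as EGR1, and FOSB did not.

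Among 15 regulators of message or protein turnover and kinase activity, 3 rose and 4 fell around a median of 0.012 on the log2 scale, near the background of 18.5% of all genes higher and 20% lower. The 3 that rose are dual-specificity phosphatases, which remove phosphate from MAP kinases: DUSP6 rose from 17 and 22 to 63 and 76 fragments (log2 fold change 1.94, SE 0.279, edgeR adjusted p = 8.11e-05), DUSP5 rose by 1.15 and DUSP10 by 0.82. DUSP1 of the same family fell by 0.66 on the log2 scale. Among the others that fell, named after their values were seen, were ZFP36L2, which encodes a protein that destabilizes messages, and DET1, which encodes a part of a ubiquitin ligase.

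Of 22 upstream kinases and factors, 4 rose and 7 fell, with a median of -0.057, beside the same 18.5% and 20% of all genes. Of these 22, 0 met all 4 criteria. The genes that rose were MAPK7, MAPK14, MAP2K2 and RPS6KA1, named after their values were seen, with log2 fold changes of 0.20 to 0.42. Among those that fell was SRF, also named afterwards, whose protein has the CArG box as its site. Binding at the boxes printed for FOS and FOSB was not measured. SRF fell by 0.29 on the log2 scale (SE 0.0695, edgeR adjusted p = 0.00404), less than MRTFB (-0.38) and RPS6KA3 (-0.36).

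Among 21 further bZIP partners and competitors 18 were tested, 2 rose and 5 fell, beside 18.5% and 20% of all genes. Their median was 0.0068, the same as that of all genes. CREM, a factor that binds the CRE, rose from 707 and 833 to 1196 and 1284 fragments (log2 fold change 0.80, SE 0.0801, edgeR adjusted p = 3.29e-06). ATF4, a stress factor that pairs with several AP-1 proteins, fell from 2844 and 2825 to 1680 and 1702 fragments (-0.63, SE 0.0669, edgeR adjusted p = 5.45e-06). MAFK, NFE2L3, ATF1 and ATF7 also fell, without meeting all criteria, and were named after their values were seen. MAFK, a small MAF gene like MAFF, had log2 fold change -0.51, so the small MAF genes did not move one way.

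**Figure D4:**
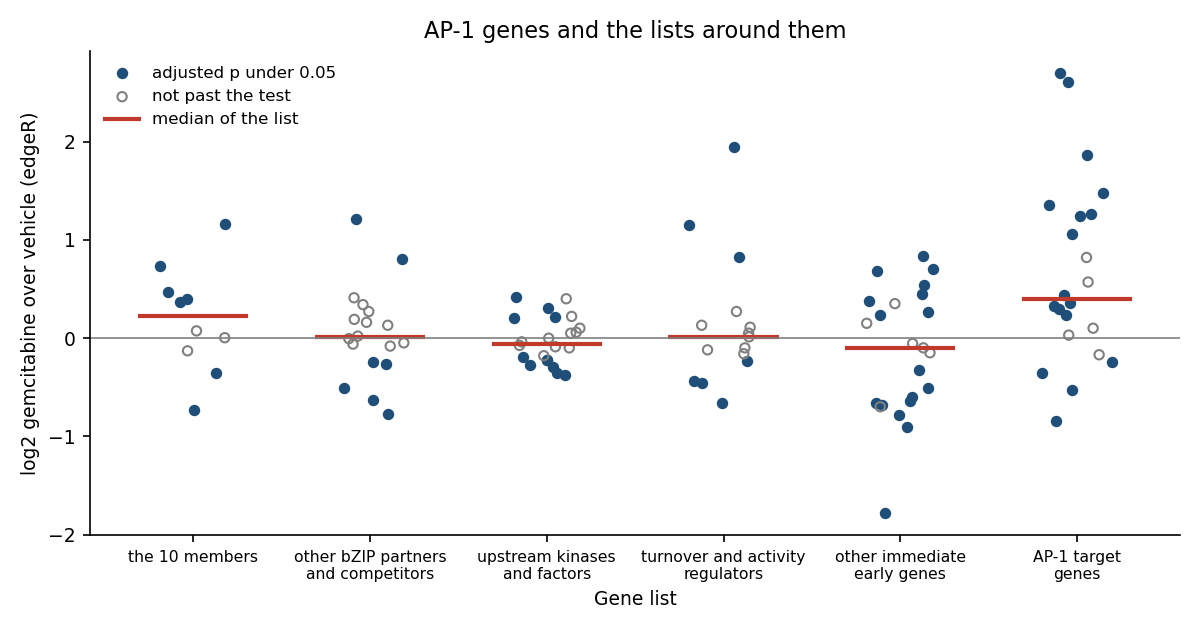
Log2 gemcitabine over vehicle from edgeR for each tested gene, for the 10 AP-1 genes and 5 gene lists, with filled points for an adjusted p under 0.05 and a red bar at the median. The median is 0.40 for the AP-1 target genes and 0.22 for the 10 AP-1 genes, and between -0.10 and 0.012 for the other lists.

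The DNaseI peaks near the AP-1 genes are given as descriptions, since each condition has 1 library and a peak list depends on its depth. The vehicle list holds 9606 peaks and the gemcitabine list 10695. Within 5 kb of an annotated start, 5 of the 10 genes had a vehicle peak (FOSB, FOSL1, JUND, ATF3 and MAFF), against 24.7% of 18838 genes, and 6 had a gemcitabine peak (FOS, FOSL1, FOSL2, JUND, ATF3 and MAFF), against 28.3%. FOSL1, JUND, ATF3 and MAFF had a peak over a start in both lists. JUN and BATF3 had none within 20 kb, and JUNB none within 5 kb, although JUNB was among the highest of the 10 in RNA, so a missing peak at this depth does not show a closed promoter.

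The start of FOS was covered by a peak in the gemcitabine list alone (chr14:75743326-75745881, score 102.09, where the score is -10 times log10 of the caller's p-value), and that of FOSB by a peak in the vehicle list alone (chr19:45970598-45971517, score 83.97). Each peak was thus listed in the condition with the lower RNA level of its gene. Both peaks cover the CArG boxes printed above, and the FOSB peak covers its CRE. FOS also had peaks 10903 to 19081 bases upstream in both lists, with scores of 51.13 and 76.23 in vehicle and 113.67 and 164.28 after gemcitabine. The start of ATF3 had scores of 122.97 and 166.1, that of JUND 84.87 and 122.5, that of MAFF 81.08 and 68.38 and that of FOSL1 63.03 and 53.3 in vehicle and gemcitabine. Scores are not scaled between the lists, so their order between conditions was not tested.

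**Figure D5:**
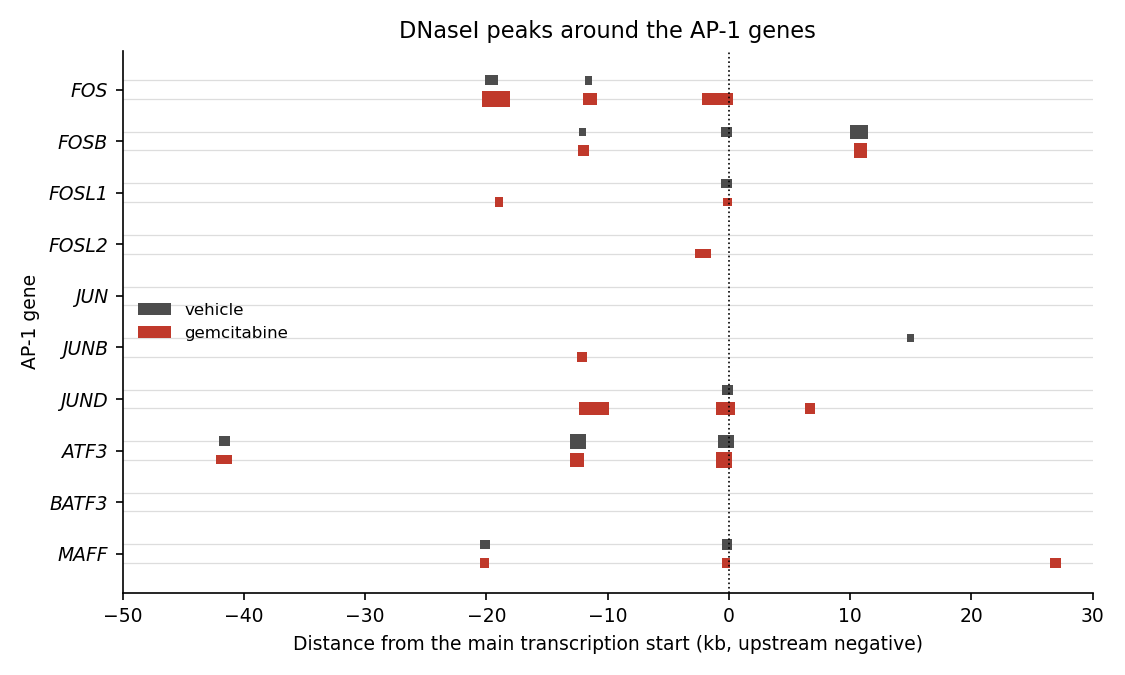
DNaseI peaks around the main transcription start of each AP-1 gene, by distance in kb with upstream to the left, in the vehicle (grey, upper line) and gemcitabine (red, lower line) lists, with the height of a bar growing with its score. A peak over the start is drawn for FOS in the gemcitabine list alone and for FOSB in the vehicle list alone, and no peak is drawn for JUN and BATF3.

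Although no upstream window held the TRE, some peaks within 20 kb of the starts did. Of the 13 vehicle and 18 gemcitabine peaks within 20 kb of a start of the 10 genes, 4 and 8 held TGACTCA on either strand, against 30.2% and 30% of all peaks. The matches at ATF3 and FOSB lie in peaks of both lists and are shown with 20 bases on either side on the plus strand of hg19, with the match in capitals.
ATF3, chr1:212740573-212740619: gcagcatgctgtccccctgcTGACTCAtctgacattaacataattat
ATF3, chr1:212769081-212769127: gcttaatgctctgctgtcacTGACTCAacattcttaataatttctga
ATF3, chr1:212769835-212769881: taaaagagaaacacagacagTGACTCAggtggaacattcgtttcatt
FOSB, chr19:45959132-45959178: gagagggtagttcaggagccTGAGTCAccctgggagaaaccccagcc
FOSB, chr19:45959348-45959394: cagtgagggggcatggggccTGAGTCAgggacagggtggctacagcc
The ATF3 stretches lie in introns of its longer transcripts, and the FOSB stretches lie upstream of FOSB in introns of ERCC1. They are shown because these TRE letters lie in DNaseI peaks of both conditions, and binding of AP-1 was not measured. The match at FOSL1, also in peaks of both lists, lies across its main start (chr11:65667859) and overlaps an exon. Matches at JUNB, JUND and MAFF lie in peaks of the gemcitabine list alone.

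Over all peaks, the share with TGACTCA in the 300 bases at the centre was 18.9% of the 4059 peaks found in the vehicle list alone (95% Wilson interval 17.7 to 20.1) and 14.2% of the 5152 found in the gemcitabine list alone (13.3 to 15.2). The peaks of both lists that overlapped lay between them, at 16.5% of 5546 vehicle peaks and 15.4% of 5543 gemcitabine peaks. The intervals cover counting error only. The peaks also differed in base composition, with 45.6% G and C in vehicle-only and 49.8% in gemcitabine-only peaks, and in median width, 785 and 915 bases, and the part of these in the share was not tested. In whole peaks, which differ in width, the shares were closer, at 30.7% and 28.2%. Per kb of whole peak, matches numbered 0.474 in vehicle-only and 0.352 in gemcitabine-only peaks. With 1 library per condition the difference compares these libraries, not the treatments.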

How the data were processed

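Single-end RNA-seq reads had been mapped to hg19 by the authors with TopHat2 2.0.8 and assigned to Gencode V15 protein-coding genes with Cuffdiff 2.0.2. The deposited table holds estimated counts (fragments, 86.8% of values whole) and FPKM summed over isoforms by the authors, and 2 further columns per library were not used. Its library index cannot be tied to the labelled replicates, so replicate numbers only tell libraries apart. The authors called DNaseI peaks with MACS at a p-value of 1e-05, and the deposited score is -10 times log10 of p.

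Estimated counts were rounded and tested with edgeR 4.0.16 (R 4.3.3) after TMM scaling, with p-values adjusted by the Benjamini-Hochberg method, for genes with 10 or more fragments. Cuffdiff was not run. Scaled CPM are fragments over the TMM-scaled library total. Alternatives were DESeq2 1.42.0, other scalings and filters, limma 3.58.1 on log2(FPKM + 1) and log2(FPKM + 0.1), left-out libraries and other limits for peaks. Starts and sequences came from GRCh37 with Gencode v44 carried to it. The members and lists were chosen with earlier results of these data known. Named were all members and, per list, up to 4 genes that met all criteria, by absolute log2 fold change. A few list genes are counted but not reported by name.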

Additional observations from a re-analysis of the deposited data

How the results depend on the processing

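Over the alternatives that kept all libraries, the sign of no AP-1 gene changed. DESeq2, its size factors in edgeR, no filter or edgeR's own filter on low counts, and a limit of 0.01 moved no count of AP-1 genes by over 1.5 times. Library totals raised the median log2 fold change of all genes from 0.0068 to 0.12 and the up-regulated part of all called genes from 56.2% to 73.6%, with 417 down-regulated genes in place of 658 and 1 called bZIP partner in place of 2. There FOS fell by 0.62 and JUND fell by 0.25 on the log2 scale. With limma on log2(FPKM + 1) or log2(FPKM + 0.1), 3 AP-1 genes passed as higher and 1 as lower. Of all 14105 genes 1309 then passed as higher, and 1868 or 1881 in either direction. FOSL1, JUN and JUND no longer passed (limma adjusted p of 0.0895 to 0.333). Down-regulated genes then numbered 326 or 350, and called genes numbered 1 among bZIP partners, 1 among upstream kinases and factors, and 5 or 6 among immediate early genes. With log2(FPKM + 1) and no filter, 0 AP-1 genes passed in either direction and 0 were called, with 28 genes up-regulated and 17 down-regulated in all, 0 called bZIP partners or turnover regulators, and 1 each among immediate early genes and AP-1 targets. More genes were then tested, 20461 in place of 14105, and 133 in place of 1868 passed in either direction. Why fewer passed was not tested.

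Leaving out 1 library at a time gave 2 to 5 AP-1 genes higher and 1 to 3 lower by the test, 1 to 2 called higher, and 2 to 4 called bZIP partners. Each such fit assumes that a lone library varies like the pair of the other condition. FOSL2 turned to -0.091 without gemcitabine replicate 2. With a replicate block by the table's index, 844 genes were called as up-regulated and 661 as down-regulated, and no call of an AP-1 gene changed. The index is not known to pair libraries (correlation of deviations -0.0622).

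On CPM in place of FPKM, the share of FOS in its family was 56% and 41.5% in vehicle and gemcitabine, that of FOSB 1.41% and 3.88%, that of JUN 5.81% and 8.51%, and that of JUNB 55.6% in vehicle. With peaks of a score of at least 100, 1 AP-1 gene had a vehicle peak within 5 kb, against 7.02% of 18838 genes. A gemcitabine peak was then near 3 AP-1 genes, against 8.65%. The share of peaks with TGACTCA was then 20.9% (vehicle-only), 11.9% (gemcitabine-only), 15.1% (shared, vehicle list) and 13.8% (shared, gemcitabine list), and in whole peaks 30.7%, 28.2%, 29.9% and 31.7%. The order of vehicle-only above gemcitabine-only peaks held in each case.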
